A study of Mus musculus with 24 samples.

Results

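AMP-activated protein kinase (AMPK) is a sensor of cellular energy made of a catalytic α subunit, a scaffolding β subunit and a γ subunit that binds adenine nucleotides. It is switched on when AMP and ADP rise relative to ATP, and full activity requires phosphorylation of the α subunit by an upstream kinase, mainly LKB1 (gene *Stk11*) or, after a rise in calcium, CaMKK2 (gene *Camkk2*). In skeletal muscle, active AMPK promotes glucose uptake and fatty acid oxidation and restrains anabolic processes. Its regulation is largely post-translational, so that the transcript levels given here do not measure its activity.

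The transcripts of the 7 subunit genes (*Prkaa1*, *Prkaa2*, *Prkab1*, *Prkab2*, *Prkag1*, *Prkag2* and *Prkag3*) and the 2 upstream kinase genes were followed in *M. gastrocnemius*, a calf muscle of mixed fiber types. They were found by gene name among the non-control probes, which gave 9 genes of 22328 with a matched probe, 10 probes of 55681 and 19 spots of 59305. All 24 mice were male C57BL/6JOlaHsd mice of 10 weeks at arrival that received a purified low-fat diet (10% of energy from fat) for 3 weeks and a high-fat diet (40% of energy from fat) for 6 weeks. The 12 Hypox mice were kept, fasted, at 12% oxygen for 6 h, and the 12 Norm mice, fasted as well, at 20.9% oxygen. By design the groups differed in oxygen only, and both were animals on a high-fat diet, with no group on another diet. RNA was taken from the ground whole muscle. In such bulk RNA, fewer cells of a type and less RNA per cell cannot be told apart.

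On every array, labelled RNA of a single mouse (Cy5) was set against a common pool made from all mice (Cy3), and each value below is the normalized log2 ratio of the sample over that pool, averaged over 12 mice per group (mean ± SD). The arrays lay on 6 slides of 2 Norm and 2 Hypox arrays. Mean Cy5 brightness lay between 58.3 and 933 on the Norm arrays, between 63.5 and 1014 on the Hypox arrays, and was lowest on slide 1 (58.3 to 102). Cell type markers are called here at an unadjusted p under 0.05 in the limma test described below. Of all genes tested 12% passed this threshold, 7.08% higher and 4.96% lower in Hypox. After Benjamini-Hochberg adjustment 0 markers were called in any list. Of the 10 fast fiber markers 1 was called higher in Hypox (*Mylpf*) and the median change of the list was -0.25. All 8 slow fiber markers had a higher mean in Hypox (median 0.36) and 2 were called. The mean of this list ranged more widely among Norm arrays (-2.08 to 0.60) than among Hypox arrays (-0.26 to 0.16). *Myh7*, *Myl3*, *Tnnt1* and *Tpm3* were higher in Hypox on 3 of 6 slides, and the other slow fiber markers on 5. Of 6 peripheral nerve markers 3 were called lower, and of 4 adipocyte markers tested 2 were called lower, while *Plin1* and *Lep* did not pass the filter on dim probes. Of 4 endothelial markers tested 2 were called higher. The lung marker *Sftpc* was called higher (0.81), and the 3 other lung markers did not pass the filter.

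The probes are 60-base oligonucleotides, and positions are given on mouse genome build mm9. A stretch of 30 bases is shown for the 2 genes with the largest difference between Hypox and Norm, for the 2 genes whose values moved most alike among the arrays, and for both probes of *Camkk2*, which differed in signal. Capitals mark the longest run of G and T only, and positions count from the 5′ end of the probe.
*Prkag2*, positions 6 to 35: GTTTGGGGGTTTGTTTTGGGGTTTTGTTTc
*Prkaa2*, positions 4 to 33: TTTGTatacttccaaagcttgatctctgtg
*Prkab2*, positions 31 to 60: aggaagaaataaGGGTctttcaggactctg
*Prkag3*, positions 31 to 60: ctgaaaaccaacgaaaggatcTTGGaactt
*Camkk2*, brighter probe, positions 18 to 47: TGTGGTGGTagaggtctgtctggaggctga
*Camkk2*, dimmer probe, positions 4 to 33: TGGTaaagaccatgattcgaaagcgctcat
The *Prkag2* probe consisted of G and T for 80.0% of its bases and held a run of 29 such bases. Of all probes, 74 (0.133%) had a run as long. The *Prkaa2* probe had 55.0% G and T and a longest run of 5, which 69.7% of the probes equalled or exceeded. Whether this base composition bears on the *Prkag2* values was not tested.

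A probe entered the test if its Cy5 signal exceeded 2 times the background around the spot on average, which 8 of the 9 genes fulfilled. The exception was *Prkab1*, which encodes the β1 subunit. Its probe (chr5:116464650-116464709, minus strand) reached 1.59 times the background and stood well above it on 2 Norm arrays and 3 Hypox arrays. Tested without the filter, it changed by 0.042 on the log2 scale (SE 0.061, p = 0.496, limma). Among the tested genes, *Prkaa2*, *Prkab2* and *Prkag1* were well above background on 24 of 24 arrays, *Stk11* on 23, *Prkag2* on 21 and *Prkag3* on 20, while *Prkaa1* reached this on 18 and *Camkk2* on 17. Each of the 8 was thus measured in both groups, *Prkaa1* and *Camkk2* with the weakest detection.

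The comparison of Hypox and Norm used the moderated test of limma over 9186 genes, at the unadjusted threshold of 0.05 that the study used and after Benjamini-Hochberg adjustment over all genes tested. Of the 8 genes tested, 1 was called without adjustment, *Prkag2*, which was higher in Hypox. This is 12.5% of the 8 genes, and 12% of all genes tested passed the same threshold (7.08% higher and 4.96% lower in Hypox). After Benjamini-Hochberg adjustment of the limma test, 0 of the 8 genes were called, against 0.348% of all genes. The methods' t-test called the same number, 1 without and 0 after adjustment. The median log2 fold change of the 8 genes was -0.0012 (4 higher and 4 lower), and that of all genes was 0.029. The ranges of Norm and Hypox values overlapped for each of the 8 genes.

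**Figure D1:**
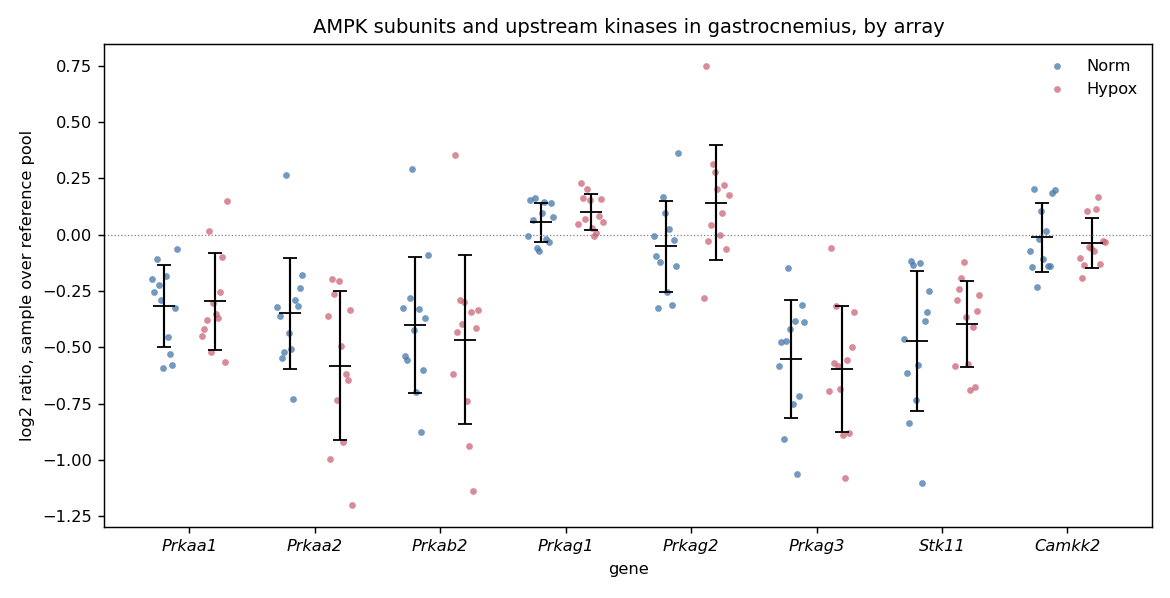
The log2 ratio of sample over reference pool (y axis) of the 8 genes tested (x axis) is plotted for each array, with Norm in blue and Hypox in red (n = 12 per group), and black bars give mean ± SD. The groups overlap for each gene, *Prkag2* has its highest value in Hypox replicate 2 (0.75), and *Prkaa2* its lowest in Hypox replicate 12 (-1.20).

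The α subunits carry the kinase domain, and α2, encoded by *Prkaa2*, is the main catalytic isoform of skeletal muscle. *Prkaa2* (chr4:104707708-104707767, minus strand) ranged in Norm from -0.73 to 0.26 with a median of -0.34. Under hypoxia it ranged from -1.20 to -0.20 with a median of -0.56. Of the 12 Hypox arrays, 4 lay below every Norm array, and 4 lay above the Norm median. The mean was -0.35 ± 0.25 in Norm and -0.58 ± 0.33 in Hypox. The log2 fold change was -0.23 (SE 0.11, 95% confidence interval -0.47 to 0.0029, p = 0.0527, adjusted p = 0.420, limma), a fold change of 0.851, which did not pass the threshold. The Hypox mean was the lower one on 5 of 6 slides, with differences between -0.41 and 0.12. The estimate stayed below 0 when each array was left out in turn (-0.27 to -0.18) and passed the threshold in 9 of these 24 fits, which omitted Norm replicates 3, 4, 7 and 8 and Hypox replicates 1, 3, 4, 6 and 11 in turn (p = 0.0284 to 0.112 over all 24). With arrays centred on their median in place of loess it was 0.16 (p = 0.730), where the median of all genes was 0.25 and *Prkaa2* thus lay below it. It was -0.081 (p = 0.409) with array weights and -0.014 (p = 0.962) in the authors' deposited log2 values.

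The α1 isoform, encoded by *Prkaa1*, is expressed in most tissues. In Norm, *Prkaa1* (chr15:5131426-5131485, plus strand) spanned -0.59 to -0.064 (median -0.27), and the Hypox arrays spanned -0.56 to 0.15 (median -0.36). The Hypox values thus spanned the whole Norm range except for its lowest end, and the highest value was that of Hypox replicate 12. The change of *Prkaa1* was 0.021 on the log2 scale (SE 0.084, 95% confidence interval -0.15 to 0.19, p = 0.804, limma). It was higher in Hypox on 3 of 6 slides. The size and its SE depended on the signal used, with 0.35 (SE 0.23, p = 0.128, limma) from the scanner software's processed signals. Hypox replicate 12 had the highest *Prkaa1* value and the lowest *Prkaa2* value. This array lay on slide 1, the slide with the lowest brightness. Its Cy5 signal was 54.0 for *Prkaa1* (background 28) and 106 for *Prkaa2* (background 27).

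The β subunits hold α and γ together and carry a glycogen-binding domain, and β2, encoded by *Prkab2*, is the main β isoform of skeletal muscle. The Norm arrays spanned -0.88 to 0.29 for *Prkab2* (chr3:97476843-97476902, plus strand) with a median of -0.40, and the Hypox arrays spanned -1.14 to 0.36 with a median of -0.40. It had the widest spread among the 8 genes in Hypox, with an SD of 0.38, and both extremes of all 24 arrays were Hypox arrays. *Prkab2* changed by -0.066 on the log2 scale (SE 0.13, 95% confidence interval -0.34 to 0.20, p = 0.620, limma). The differences within slides ran from -0.31 to 0.43, with 3 slides in each direction.

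The γ subunits bind AMP, ADP and ATP. The γ3 isoform, encoded by *Prkag3*, is largely restricted to skeletal muscle and enriched in fast glycolytic fibers, whereas γ1 and γ2 are more widely expressed. For *Prkag2* (chr5:24368591-24368650, minus strand), Norm values lay between -0.32 and 0.36 (median -0.059) and Hypox values between -0.28 and 0.75 (median 0.14). Of the 12 Hypox arrays, 10 lay above the Norm median, and 1, replicate 2, lay above every Norm array. The mean was -0.05 ± 0.20 in Norm and 0.14 ± 0.25 in Hypox. Its log2 fold change was 0.19 (SE 0.094, 95% confidence interval 0.0027 to 0.39, p = 0.0471, adjusted p = 0.404, limma), a fold change of 1.14. The Hypox mean was the higher one on 4 of 6 slides, with differences between -0.13 and 0.47. The call did not hold in every fit with fewer arrays. Without Hypox replicate 2 the log2 fold change was 0.14 (p = 0.0978). Without the arrays of slide 1 it stayed at 0.19, with an SE of 0.11 in place of 0.094 (p = 0.102). Of the 24 fits with a single array removed (0.14 to 0.23, p = 0.0162 to 0.0978), 9 passed the threshold. The call was lost when a single array among Norm replicates 1, 2, 3, 4, 7, 9, 10 and 11 or Hypox replicates 2, 5, 6, 7, 9, 10 and 12 was omitted.

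**Figure D2:**
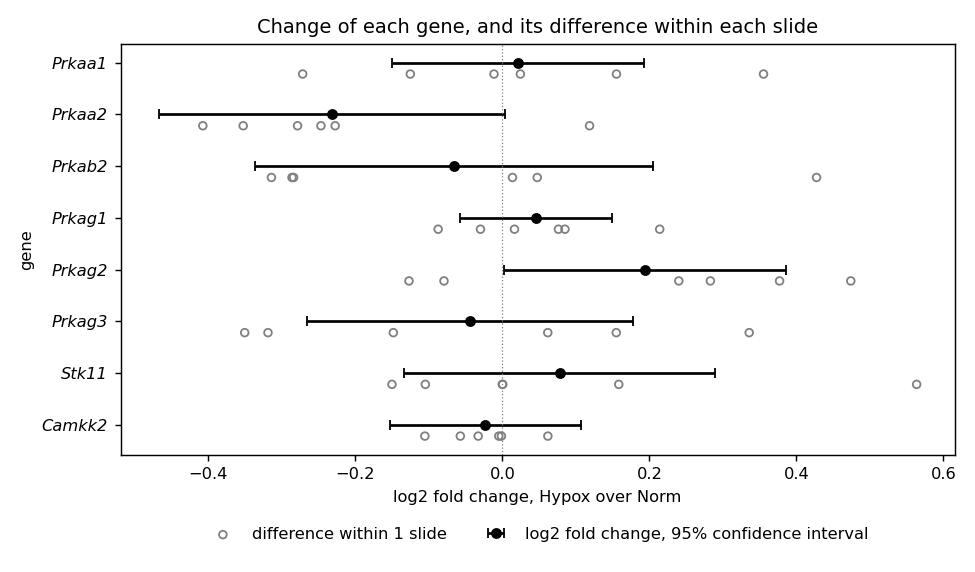
The log2 fold change of Hypox over Norm (x axis) is plotted for each of the 8 genes (y axis) as a black point with its 95% confidence interval, and open circles give the difference between the group means within each of the 6 slides. The interval of *Prkag2* excludes 0 narrowly (0.0027 to 0.39), that of *Prkaa2* includes it narrowly (-0.47 to 0.0029), and the slide differences lie on both sides of 0 for each gene.

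*Prkag1* (chr15:98643402-98643461, minus strand), which encodes γ1, was read by 10 spots on each array. Norm mice lay between -0.074 and 0.16 (median 0.071), and Hypox mice lay between -0.0060 and 0.23 (median 0.077). These were the smallest standard deviations among the 8 genes, 0.088 in Norm and 0.079 in Hypox. *Prkag1* changed by 0.046 on the log2 scale (SE 0.051, 95% confidence interval -0.058 to 0.15, p = 0.375, limma). The 10 spots gave an estimate of the technical error of this probe. Their log2 ratios within an array had an SD with a median of 0.179 (0.0905 to 0.473). Of the 240 readings, 15 were flagged by the scanner software and left out. The differences of the single spots between the groups ran from -0.012 to 0.12, and 9 of 10 were above 0. The probes of the other members had 1 spot each, so their values were not averaged over spots and their spot error was not measured. The SD among the *Prkag1* spots does not give its size: *Camkk2* had an SD among arrays of 0.15 in Norm and 0.11 in Hypox.

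*Prkag3* (chr1:74787214-74787273, minus strand) was between -1.06 and -0.15 in the Norm mice (median -0.48), and between -1.08 and -0.057 in the Hypox mice (median -0.58). Of the 12 Hypox arrays, 3 lay above the Norm median and 1 lay above every Norm array. On the log2 scale *Prkag3* changed by -0.044 (SE 0.11, 95% confidence interval -0.27 to 0.18, p = 0.685, limma), with 3 slides in each direction.

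Of the upstream kinases, *Stk11* (chr10:79590785-79590844, plus strand) spanned -1.10 to -0.12 on the Norm arrays, with a median of -0.42. The Hypox arrays spanned -0.69 to -0.12, with a median of -0.35. Both group maxima lay at about the same value, while the lowest 2 arrays were Norm arrays of slide 2. The change of *Stk11* was 0.078 on the log2 scale (SE 0.10, 95% confidence interval -0.13 to 0.29, p = 0.458, limma). The difference within a slide was largest on slide 2, at 0.56, and ran down to -0.15 on the others.

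*Camkk2* was covered by a pair of probes. The probe that passed the filter (chr5:123183273-123183332, minus strand) gave values of -0.23 to 0.20 in Norm mice (median -0.046), and of -0.19 to 0.17 in Hypox mice (median -0.056). Its log2 fold change was -0.023 (SE 0.063, 95% confidence interval -0.15 to 0.11, p = 0.715, limma), and the Hypox mean was the lower one on 5 of 6 slides, by at most 0.11. From the scanner software's processed signals the change was 0.11 (SE 0.13, p = 0.432, limma), so that its sign and SE depended on the signal used. The other probe (chr5:123187482-123187541, minus strand) is assigned to another transcript of the gene. Its signal was 1.12 times the background and well above background on 0 of 24 arrays. This probe thus detected no transcript, which does not show that the transcript was absent, since a weak probe would read the same.

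The balance between isoforms was compared as the difference of 2 log2 ratios on the same array, for the α pair and the 3 γ pairs. These 4 comparisons were chosen after the values were seen. *Prkag2* minus *Prkag3* was 0.50 ± 0.18 in Norm and 0.74 ± 0.28 in Hypox. The difference between the groups was 0.24 (SE 0.097), with Hypox higher on 6 of 6 slides (0.021 to 0.63) and above the Norm median on 9 of 12 arrays. It did not pass the threshold after Benjamini-Hochberg adjustment over the 4 comparisons (2-sided permutation test, p = 0.0233, adjusted p = 0.0934). *Prkaa1* minus *Prkaa2* differed by 0.25 (SE 0.15, permutation p = 0.111, adjusted p = 0.170), with Hypox higher on 5 of 6 slides (-0.044 to 0.71). On slide 1, the dimmest, *Prkaa1* differed by 0.36 and *Prkaa2* by -0.35. Without slide 1 the change was -0.046 for *Prkaa1* and -0.21 for *Prkaa2*. *Prkag1* minus *Prkag2* differed by -0.15 (SE 0.094, permutation p = 0.127, adjusted p = 0.170) and *Prkag1* minus *Prkag3* by 0.090 (SE 0.10, permutation p = 0.398). Differences of log ratios to a pool show unequal change between genes and not which isoform was more abundant.

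The 8 genes were then compared with each other over the 24 arrays. Of their 28 pairs, 22 had a positive correlation, with a median Pearson r of 0.12, and 3 pairs passed after Benjamini-Hochberg adjustment over the 28 pairs. *Prkab2* and *Prkag3* varied most alike, with a Pearson r of 0.872 and a Spearman rho of 0.819 (permutation p = 1e-05 for both, the smallest that 100000 permutations can give, adjusted p = 0.00028). The correlation was 0.842 within Norm, 0.897 within Hypox, 0.895 after slide means were removed, and 0.857 without Hypox replicates 2 and 10, the arrays farthest from the *Prkab2* median. Arrays with a low *Prkab2*, such as Hypox replicate 10 (-1.14) and Norm replicate 9 (-0.88), also had a low *Prkag3* (-0.88 and -1.06). Hypox replicate 2 and Norm replicate 5 were the highest 2 arrays for both genes. With slide means removed, *Prkab2* had the highest Pearson r with *Prkag3* among 9134 genes, and *Prkag3* ranked 3 for *Prkab2*. *Stk11* followed both, with r = 0.720 and rho = 0.653 for *Prkag3* (permutation p = 0.00011 and 0.00087, adjusted p = 0.0015 and 0.0081) and r = 0.668 and rho = 0.731 for *Prkab2* (permutation p = 0.00033 and 0.0001, adjusted p = 0.0031 and 0.0014). With slide means removed the r of *Stk11* was 0.583 with *Prkag3* and 0.615 with *Prkab2*, and without the 2 farthest arrays 0.737 and 0.716. Many other genes were as close: with slide means removed, *Stk11* ranked 375 for *Prkag3* and 336 for *Prkab2* among 9134 genes. For *Stk11*, *Prkag3* ranked 416 and *Prkab2* 302. The points share the array, its dye channels and its normalization.

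*Prkaa2* followed this group less closely over all arrays, a difference that was not tested. Its Pearson r with *Prkab2* was 0.180 (rho 0.199, permutation p = 0.398 and 0.352) and with *Prkag3* 0.0967 (rho 0.144, permutation p = 0.652 and 0.50). Within Norm these were 0.590 and 0.392, and within Hypox -0.11 and -0.16. Without Hypox replicate 12 and Norm replicate 5, the arrays farthest from the *Prkaa2* median, the correlations over the remaining arrays were -0.018 and 0.033. The correlations within a group rest on 12 arrays each and were not recomputed without these arrays. Their difference between the groups was not tested. On Hypox replicate 2, where *Prkab2*, *Prkag1*, *Prkag2* and *Prkag3* had their highest value, *Prkaa2* was at -0.996, the lowest but 1 of all arrays.

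**Figure D3:**
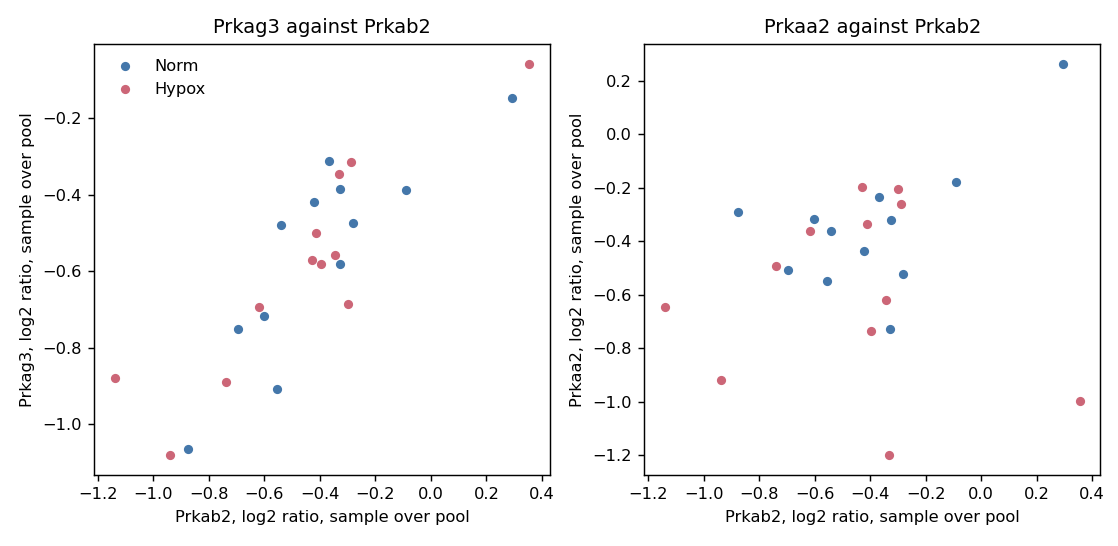
The log2 ratio over the reference pool of *Prkag3* (left, y axis) and of *Prkaa2* (right, y axis) is plotted against that of *Prkab2* (x axis), with 1 point per array, Norm in blue and Hypox in red. *Prkag3* rises with *Prkab2* in both groups (r = 0.872), while *Prkaa2* shows a weaker relation over all arrays (r = 0.180) and Hypox replicate 2 lies at the lower right.

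Of 48 relations between the 8 genes and the mean of the markers of fast fibers, slow fibers, adipocytes, peripheral nerve or endothelium, or the brightness of the array, none passed after Benjamini-Hochberg adjustment. With the fast fiber markers, *Prkag3* had a Pearson r of 0.474 (rho 0.577, permutation p = 0.0195 and 0.0033, adjusted p = 0.314 and 0.116). *Stk11* had an r of 0.475 with the same markers (rho 0.543, permutation p = 0.0196 and 0.0073, adjusted p = 0.314 and 0.116). *Stk11* had a rho of 0.56 with the slow fiber markers as well (permutation p = 0.0054, adjusted p = 0.116), with an r of 0.159 (permutation p = 0.457, adjusted p = 0.685) and 0.618 without the 2 farthest arrays. *Prkag1* had an r of 0.465 with them (rho 0.421, permutation p = 0.0151 and 0.0418, adjusted p = 0.314 and 0.334), 0.592 with slide means removed and 0.402 without the 2 farthest arrays. With the fast fiber markers, the r of *Prkag3* was 0.378 with slide means removed and 0.492 without the 2 farthest arrays, and that of *Stk11* 0.319 and 0.355. *Prkag2* had an r of 0.153 with the slow fiber markers (rho 0.25, permutation p = 0.452 and 0.235), the list whose 8 markers all had a higher mean in Hypox. *Prkaa2* had an r of -0.41 with them (rho -0.12, permutation p = 0.0535 and 0.572), and -0.19 without the 2 farthest arrays.

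The genes whose log2 ratio was most like that of each member, by Pearson r over 24 arrays with slide means removed, are given as a description. For *Stk11* these were *Sptb* (0.915), *Ywhab* (0.899) and *Atp6v0d1* (0.881). For *Prkab2* they were *Zfp663* (0.908), *Rac1* (0.897) and *Prkag3* (0.895), and for *Prkag3* they were *Prkab2*, *Susd6* (0.861) and *Rtl8b* (0.845). *Prkag2* was followed by *Cep89* (0.886), *Mrps36* (0.872) and *Gins3* (0.849). *Prkaa2* was followed by *Aoc2* (0.871), *Ftl1* (0.854) and *Satb1* (0.853). The closest genes were *Eif2s2* (0.806), *Tab3* (0.801) and *Zeb2* (0.798) for *Prkaa1*, and *Cacnb1* (0.812), *Thy1* (0.796) and *Maged1* (0.749) for *Prkag1*. The lowest such values were those of *Camkk2*, with *Tshz3* (0.732) and *Nedd1* (0.701). With slide means left in, the r of these genes ran from 0.532 (*Cacnb1* with *Prkag1*) to 0.925 (*Sptb* with *Stk11*).

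The other genes of the pathway were taken from lists of LKB1 partners, other AMPK regulators, AMPK-related kinases, AMPK substrates and genes raised by AMPK activity in muscle. Of 65 genes, 48 were tested and 4 were called without adjustment, 3 higher and 1 lower in Hypox, which is 8.33% against the 12% of all genes. This split was not stable: the scanner software's processed signals gave 7 called with 2 higher, and array weights gave 9 with 4 higher. After Benjamini-Hochberg adjustment of the limma test 0 were called. The median log2 fold change of the 48 genes was -0.011.

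Of the 21 AMPK substrates tested, 3 were called (14.3% against 12% of all genes), and the median of the list was -0.00089. *Txnip*, which encodes a protein that restrains glucose uptake and is degraded after phosphorylation by AMPK, was at -0.47 ± 0.31 in Norm and 0.08 ± 0.45 in Hypox. Its log2 fold change was 0.54 (SE 0.15, p = 0.00098, adjusted p = 0.103, limma), with Hypox higher on 6 of 6 slides. With the mean of its 2 probes it was 0.37 (SE 0.11, p = 0.0031, limma). *Becn1*, which encodes the autophagy factor Beclin 1, was higher by 0.27 (SE 0.11, p = 0.0169, adjusted p = 0.282, limma) and on 5 of 6 slides. It was not called with the processed signals (p = 0.232), Cy5 alone (p = 0.0999), the deposited values (p = 0.170) or median centring (p = 0.0709). *Gys1*, the glycogen synthase of muscle, was lower by -0.20 (SE 0.094, p = 0.0420, adjusted p = 0.387, limma), but with the mean of its 2 probes by -0.073 (p = 0.453), and in the deposited values it was higher by 0.045 (p = 0.867). It passed in 14 of the 24 fits without a single array (-0.25 to -0.17, p = 0.0057 to 0.0787), and not without slide 1 (-0.17, p = 0.110).

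Of the 6 genes that AMPK activity is known to raise in muscle, 1 was called (16.7% against 12% of all genes). *Ucp3*, a mitochondrial carrier induced by fasting, had a mean of -0.41 ± 0.30 in Norm and of -0.10 ± 0.27 in Hypox. It was higher by 0.31 on the log2 scale (SE 0.11, p = 0.0099, adjusted p = 0.245, limma), with Hypox higher on 5 of 6 slides. With the mean of its 2 probes it was higher by 0.27 (SE 0.089, p = 0.0055, limma). It was not called with the processed signals (p = 0.180), Cy5 alone (p = 0.181) or median centring (p = 0.0938). The median of the list was -0.18, with 2 genes higher and 4 lower, so that the called gene and the median had opposite signs.

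Of the 4 LKB1 partners, which form the active complex with LKB1, 0 were called by limma, and the smallest p was that of the scaffold gene *Cab39* (-0.14, SE 0.13, p = 0.303). Of 12 other regulators tested 0 were called, and the median of the list was -0.083. Of 6 AMPK-related kinases tested 0 were called, and the smallest p was that of *Snrk* (0.27, SE 0.14, p = 0.0746). The other 6 kinases of this list, among them *Nuak1*, *Sik1* and *Brsk1*, did not pass the filter on dim probes.

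**Figure D4:**
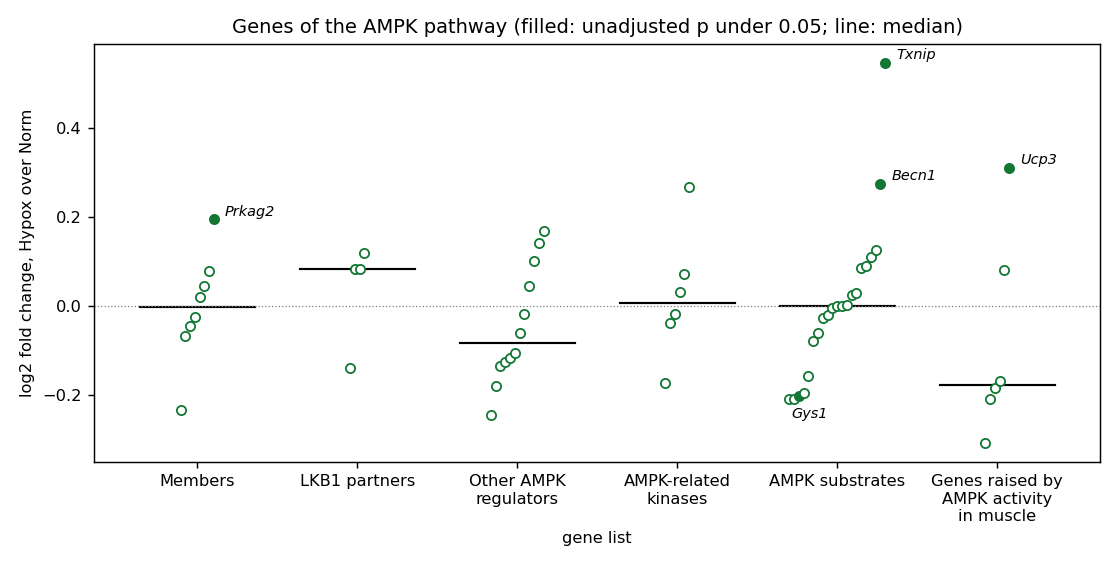
The log2 fold change of Hypox over Norm (y axis) is plotted for each tested gene of the members and of the 5 pathway lists (x axis), with filled points for an unadjusted p under 0.05 and lines at the median of a list. The called genes are *Prkag2* among the members, *Txnip*, *Becn1* and *Gys1* among the substrates and *Ucp3* among the genes raised by AMPK activity, and the medians lie between -0.18 and 0.082.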

How the data were processed

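Total RNA of *M. gastrocnemius* from 12 Norm and 12 Hypox mice was measured on 24 Agilent arrays. The authors deposited spot intensity values, with the background in either channel, from Agilent Feature Extraction 10.7.3.1 (per the labels), with arrays not yet normalized to each other. Their table of log2 values, normalized by the authors and with a median of 6.58 in every column, holds 21335 spots. Its exact scaling and use of the Cy3 channel are not given in the sources used here, and it served as an alternative. Dyes follow the written sample descriptions, because GEO's dye field names other dyes for a few Hypox arrays.

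Control spots and 7260 flagged readings were left out, and 0 were saturated. After normexp background correction (offset 50), each array's log2 ratio of Cy5 to Cy3 was loess-normalized, and replicate spots were averaged per probe. RefSeq accession named the gene of 27235 probes, symbol that of 3581 and synonym that of 565, and 24300 probes stayed unmatched. The filter required a mean Cy5 signal over 2 times the background and a value on all but at most 4 arrays, and the brightest probe stood for its gene. Of the 9186 genes tested, 1772 had over 1 probe. The groups were tested with limma (moderated test, no block), and p-values were adjusted by Benjamini-Hochberg over every gene tested. Correlations and isoform differences were tested with 100000 permutations of the arrays.

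The members, the pathway lists and the marker lists were chosen with earlier results of these data known. Named are all members, up to 3 genes per pathway list and direction with the smallest p under 0.05 (otherwise the gene with the smallest p), and the 3 genes most like each member. Some genes that this rule includes were left unreported. Alternatives comprised other signals (the scanner's processed signals, Cy5 only, the deposited values), median centring, the t-test of the study's methods, no filter or one at 3 times the background, averaging a gene's probes, a block for slide or replicate number, array brightness, array weights and omission of each array. Leaving out slide 1 was added after seeing the data. The number and brightness of arrays limit the precision. The fit was tested on simulated data. R 4.3.3, limma 3.58.1, Python 3.11.15, scipy 1.17.1, pandas 2.3.3 and matplotlib 3.10.9 were used.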

Additional observations from a re-analysis of the deposited data

How the results depend on the processing

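After adjustment, 0 members were called under each of the 13 alternatives. Without adjustment, 1 member was called as reported and under 6 alternatives. It was 2 (*Prkaa2* and *Prkag2*) with the scanner software's processed signals and with no filter on dim probes, and 0 with median centring, the deposited values, array brightness as a covariate, array weights or slide 1 left out. Leaving out 1 array gave 0 to 2 members (0 in 11 fits, 1 in 8 and 2 in 5). All genes called numbered 1106, and 31 with median centring, 729 with Cy5 alone, 489 with the deposited values, 1939 with no filter and 1715 with array weights. Median centring moved the median of all genes from 0.029 to 0.25, so that changes under it are relative to that shift. The pathway genes called numbered 4, and 7 with the processed signals (2 higher), a slide block (3 higher) or a replicate block (3 higher), 3 with Cy5 alone (1 higher), 0 with median centring, 2 with the deposited values, 11 with no filter (5 higher), 9 with array weights, and 3 to 8 without 1 array. The replicate block gave 1 member called, with p = 0.0425 for *Prkag2*, and changed no member's call. Same-numbered arrays deviated together in 3 of 12 pairs (r over 0.1, range -0.18 to 0.42), so the numbers were not taken to pair the mice.

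The call of *Prkag2* (0.19) kept its direction under all 13 alternatives (0.12 to 0.35) and passed under 8. Signs turned under median centring for *Prkaa2* (0.16), *Prkab2* (0.37), *Prkag3* (0.19), *Camkk2* (0.12) and *Gys1* (0.24), of which *Prkab2* alone lay above the median of all genes under that scaling. They also turned with the processed signals for *Camkk2* (0.11), with Cy5 alone for *Prkag3* (0.0091), and with the deposited values for *Prkaa1* (-0.00013), *Prkab2* (0.20) and *Gys1* (0.045). *Prkaa1* was at 0.35 with the processed signals, 0.17 with Cy5 alone, 0.16 with median centring, -0.022 with array weights, -0.046 without slide 1 and -0.019 to 0.045 without 1 array. The cause was not tested. *Txnip* kept its direction under all 13 alternatives and missed the threshold under median centring alone (0.93, p = 0.0525). *Ucp3* passed under 10 of 13 alternatives, *Gys1* under 8 of 13 and *Becn1* under 8 of 12, its probe not passing the stricter filter. *Prkaa1* and *Camkk2*, well above background on 18 and 17 of 24 arrays, are the tested members with the weakest detection, and *Prkab1*, at 5 of 24, was not tested.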
